A study of Mus musculus with 28 samples.

Results

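Chromosome 11 was followed in chromatin immunoprecipitation and sequencing data of mouse lung adenocarcinoma cells, which measured histone H3 acetylated at lysine 27 (H3K27ac) and at lysine 9 (H3K9ac). The members were all peaks that the authors' lists place on chromosome 11, 35612 of the 447697 peaks in 24 libraries. The members were selected on the peak call, which is a measured value, and a peak entered a list at a deposited score of 50.0 or more, which is a caller p of 1e-05. The chromosome 11 peaks just inside that limit had scores of 50.0, 50.01 and 50.01, with 47, 56 and 58 tags, and values just outside it are not analysed here. Overlapping peaks of the 12 libraries of a mark were merged into 2309 H3K27ac regions, of 32703 on all chromosomes, and 1652 H3K9ac regions, of 20543. Changes in tag count were tested only in regions with a peak in all 12 libraries, which were 961 of the 2309 H3K27ac regions and 870 of the 1652 H3K9ac regions, because a library without a peak has no deposited count. A region could therefore be tested only where every group had a peak, and the others enter below as gained or lost.

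All groups were lung adenocarcinoma cells grown in RPMI medium with serum, with 3 libraries per mark that the labels call biological replicates. Res cells carry the cell line label Resistant and a wild-type genotype, and are described as resistant to PD-1 blockade, a treatment that releases T cells from inhibition. Res_shFabp7 cells are Resistant cells with a knockdown of Fabp7, which encodes a brain-type fatty acid binding protein, by a short hairpin RNA. Res_Ctrl cells are Resistant cells whose genotype is labelled Control, and Sen cells are labelled Sensitive and wild-type. The labels name neither the driver mutation nor the number of clones behind a line, so each of these groups may be 1 line, and p-values measure the spread between its libraries. A library listed between 11771 and 28934 peaks, 984 to 2077 of them on chromosome 11, and its peaks summed to between 2.24 and 11.5 M tags (M, mega). Tags in peaks are not sequencing depth, which the lists do not give. Of 10 lung epithelial markers on any chromosome, 7 had a peak in all 12 libraries of each mark, among them Krt19 of chromosome 11. Epcam had one in 1 of 12 libraries for H3K27ac and in 4 of 12 for H3K9ac. Nkx2-1 and Cldn4 had a peak of neither mark in any library. None of 4 endothelial markers had a peak, and of 6 immune markers Cd14 alone did, in all 12 libraries of each mark. Of 5 fibroblast markers, Pdgfra and Pdgfrb had no peak in either mark. Col1a2 had an H3K27ac peak in 3 of 3 Res libraries and in none of the other 9, and Dcn in 1 Res library only. Neither had an H3K9ac peak. Col1a1 of chromosome 11 had an H3K27ac peak in 11 of 12 libraries, all but 1 Sen library. It had an H3K9ac peak in 3 of 3 Res, 3 of 3 Res_shFabp7, 1 of 3 Res_Ctrl and 1 of 3 Sen libraries. The part of these marker peaks in the results was not tested.

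Acetyl groups on lysine 27 mark active promoters and enhancers, and those on lysine 9 lie mostly at active promoters. Acetyltransferases such as Kat2a, itself a gene of chromosome 11, write such marks, deacetylases remove them, and bromodomain proteins read them. Mouse chromosome 11 is gene-rich and carries Trp53, the type I keratins, the Hoxb cluster, Brca1, Erbb2 and many genes of translation. Tumour cells often carry gains and losses of whole chromosomes or arms, and a tag count does not separate more acetylation per copy from more copies of a segment, so the 2 cannot be told apart in these lists, nor can fewer acetylated cells and less acetylation per cell. Input libraries were not analysed here.

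Of the 961 tested H3K27ac regions 68.6% lay within 1 kb of a gene start, against 82.3% of the 870 H3K9ac regions, and 90.0% of the H3K9ac regions overlapped a tested H3K27ac region. To show what such promoters look like, the 300 bases around the start (250 before, 50 after) of 6 genes are printed, from RefSeq on build GRCm38.p6, whose main chromosomes are those of mm10. Sphk1, Mdh1, Trim47 and Abhd15 had some of the largest changes between Res and Sen cells among genes that the promoter table holds. Slc25a10 and Fasn were chosen after their values were seen, as neighbours at the far end of the chromosome that moved in opposite directions. The capitals mark motifs found on either strand. The GC box was searched as GGGCGG, the CCAAT box by the letters of its name, the TATA motif as TATAAA, and the E-box of the clock and MYC type as CACGTG. In Fasn a CCAAT box overlaps another on the opposite strand.
Sphk1, chr11:116530850-116531149, plus strand: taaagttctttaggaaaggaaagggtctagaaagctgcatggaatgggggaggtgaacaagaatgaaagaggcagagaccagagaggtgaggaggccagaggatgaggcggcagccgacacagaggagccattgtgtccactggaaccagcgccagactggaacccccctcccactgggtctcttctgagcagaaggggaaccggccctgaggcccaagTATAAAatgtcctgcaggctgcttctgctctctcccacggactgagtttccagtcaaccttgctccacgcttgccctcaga
Mdh1, chr11:21571885-21572184, minus strand: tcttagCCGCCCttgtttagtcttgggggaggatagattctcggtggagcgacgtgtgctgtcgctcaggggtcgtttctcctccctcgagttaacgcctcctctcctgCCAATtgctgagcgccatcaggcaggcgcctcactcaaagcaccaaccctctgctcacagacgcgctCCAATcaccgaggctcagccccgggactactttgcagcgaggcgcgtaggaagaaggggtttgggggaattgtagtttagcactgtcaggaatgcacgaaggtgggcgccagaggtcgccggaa
Trim47, chr11:116110186-116110485, minus strand: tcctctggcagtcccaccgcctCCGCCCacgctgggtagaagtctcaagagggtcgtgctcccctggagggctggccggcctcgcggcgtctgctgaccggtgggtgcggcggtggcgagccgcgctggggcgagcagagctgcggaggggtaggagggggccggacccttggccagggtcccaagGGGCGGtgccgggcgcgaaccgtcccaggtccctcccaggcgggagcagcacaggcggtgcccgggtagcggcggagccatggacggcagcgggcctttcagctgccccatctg
Abhd15, chr11:77514867-77515166, plus strand: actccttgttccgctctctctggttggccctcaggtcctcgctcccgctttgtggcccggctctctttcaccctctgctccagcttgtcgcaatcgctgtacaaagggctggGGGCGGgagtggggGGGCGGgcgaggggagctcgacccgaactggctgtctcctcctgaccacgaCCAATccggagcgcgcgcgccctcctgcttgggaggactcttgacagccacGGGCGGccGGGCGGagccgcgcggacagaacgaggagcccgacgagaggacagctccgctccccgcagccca
Slc25a10, chr11:120491587-120491886, plus strand: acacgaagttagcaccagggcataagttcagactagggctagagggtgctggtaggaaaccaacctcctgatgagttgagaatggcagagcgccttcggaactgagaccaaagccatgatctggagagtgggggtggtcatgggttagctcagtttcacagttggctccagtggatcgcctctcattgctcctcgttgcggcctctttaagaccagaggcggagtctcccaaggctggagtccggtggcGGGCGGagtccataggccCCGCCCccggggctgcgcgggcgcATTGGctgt
Fasn, chr11:120824498-120824797, minus strand: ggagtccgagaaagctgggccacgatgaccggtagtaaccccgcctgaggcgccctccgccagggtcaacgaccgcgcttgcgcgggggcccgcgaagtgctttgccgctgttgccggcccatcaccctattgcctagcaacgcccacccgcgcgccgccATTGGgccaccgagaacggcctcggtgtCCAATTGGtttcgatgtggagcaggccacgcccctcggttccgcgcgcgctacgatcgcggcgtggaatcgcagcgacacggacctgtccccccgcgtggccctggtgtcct

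These 6 windows had a peak of both marks over them in all 12 libraries, and 5 of them hold 15 to 39 CpG dinucleotides and no TATAAA. Sphk1 differs, with 6 CpG and the 1 TATAAA of the set. Of the 1561 chromosome 11 promoter windows of protein-coding genes in the RefSeq table, 720 (46.1%) had both marks in all 12 libraries and 625 (40.0%) had a peak of neither mark in any library. Over all chromosomes these shares were 38.2% and 48.1%. The acetylated windows had a median of 24 CpG and a G and C content of 62.8%, against 4 CpG and 51.0% in those with no peak. The same classes over all chromosomes were close to this, at 24 CpG and 63.0%, against 4 CpG and 49.7%. GGGCGG was present in 71.2% of the acetylated windows and in 25.6% of those with no peak, against 51.2% of all chromosome 11 windows and 46.2% of the windows of all chromosomes. TATAAA went the other way, with 5.42% of acetylated windows and 20.2% of those with no peak, against 11.9% of all on the chromosome and 12.6% over all chromosomes. CCAAT was in 39.2% and 37.1% of these classes (37.7% of all on chromosome 11, 38.2% over all chromosomes), and CACGTG in 13.2% and 4.96% (9.74% and 7.84%). Over all chromosomes, acetylated windows and those with no peak had GGGCGG in 70.3% and 23.3%, and TATAAA in 5.74% and 19.4%. CCAAT was there in 36.8% and 38.3%, and CACGTG in 10.4% and 5.17%. The contrast between the classes was therefore not particular to chromosome 11. A match is a description of letters and not a bound site.

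Chromosome 11 took up a larger share of the acetylation signal in Res cells than in any other group. Its share of all H3K27ac tags in peaks was 10.2%, 10.4% and 10.5% in the Res libraries, 7.87%, 7.74% and 7.64% in Res_shFabp7, 7.90%, 7.68% and 7.63% in Res_Ctrl and 7.86%, 7.60% and 7.54% in Sen. For H3K9ac the share was 10.7%, 10.6% and 10.6% in Res, 8.54%, 8.44% and 8.44% in Res_shFabp7, 8.48%, 8.40% and 8.39% in Res_Ctrl and 8.43%, 8.37% and 8.36% in Sen. The 3 Res libraries stood above the other 9 in both marks. The other groups overlapped one another for H3K27ac, while for H3K9ac Res_shFabp7 lay above Sen without overlap and Res_Ctrl overlapped both. The chromosome was chosen with this shift known, so it is described and not tested. Part of the gain was in the length called: chromosome 11 held 9.19 to 9.61% of the called H3K27ac length in Res libraries and 7.44 to 7.87% in Sen libraries. Tags per called kb on the chromosome, relative to all chromosomes, were 1.09 to 1.11 in Res and 0.998 to 1.02 in Sen libraries for H3K27ac, and 1.09 to 1.10 in Res and 1.02 in each Sen library for H3K9ac. For the authors' fold of a peak over its background, the chromosome 11 median relative to that of the whole list was 1.06 to 1.08 in Res and 1.04 to 1.09 in Sen libraries for H3K27ac, which overlapped. For H3K9ac it was 1.04 to 1.05 in Res and 1.06 in each Sen library, so that Res lay slightly below Sen without overlap.

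**Figure D1:**
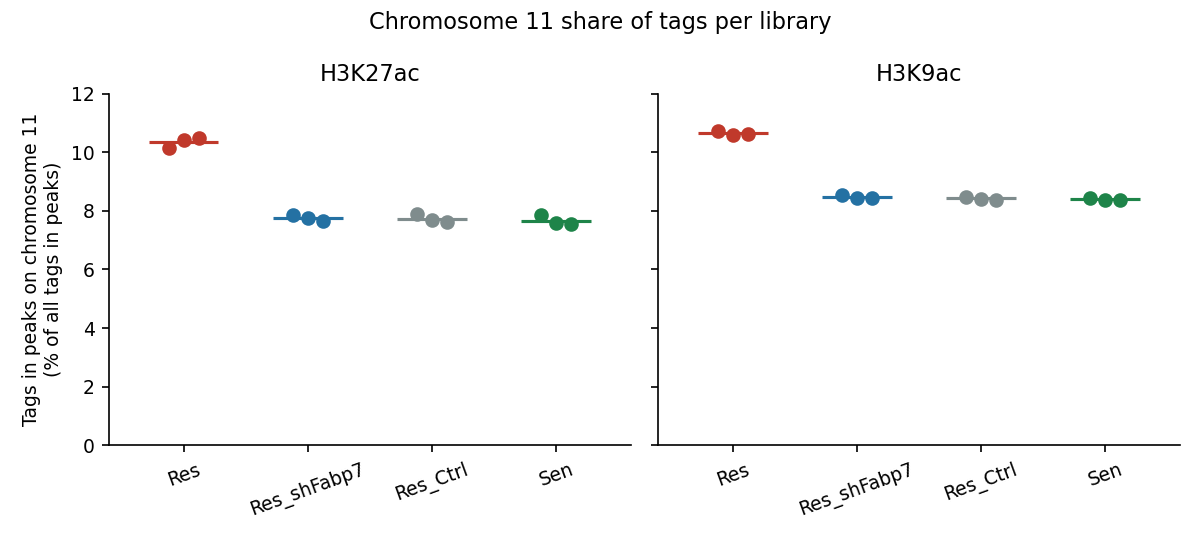
Share of all tags in peaks that lay on chromosome 11, in percent, for each library (points) and group mean (line), for H3K27ac and H3K9ac. The Res libraries sit at 10.2% or above in both marks, and the others at 8.54% or below.

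Between Res and Sen cells most of the chromosome moved together. The median log2 ratio of the tested chromosome 11 regions was 0.41 for H3K27ac (1.33-fold) and 0.35 for H3K9ac (1.28-fold), the highest of the 20 chromosomes in both marks, ahead of chromosomes 17 (0.34) and 8 (0.34) for H3K27ac. The medians over all chromosomes were -0.01 in both marks. Of the chromosome 11 regions, 85.2% had a log2 ratio above 0 for H3K27ac and 88.1% for H3K9ac, against 49.2% and 48.5% on all chromosomes. The middle 50% of regions lay between 0.19 and 0.61 for H3K27ac and between 0.20 and 0.48 for H3K9ac. With each library set against the mean over libraries, the chromosome 11 median was 0.30 ± 0.007 in Res and -0.10 ± 0.011 in Sen cells for H3K27ac (SD, n = 3 each), and 0.25 ± 0.005 in Res and -0.09 ± 0.005 in Sen cells for H3K9ac.

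By edgeR's quasi-likelihood test, adjusted over all regions of all chromosomes at 0.05, 554 of 961 H3K27ac regions were higher in Res than in Sen cells, where 20.5% of all regions were called higher, and 57 were lower, where 17.3% were. For H3K9ac 644 of 870 were higher, against 29.0% of all regions, and 59 were lower, against 26.6%. These counts share their contrast with the choice of the chromosome and are given as a description. With the median of each chromosome removed, 123 higher and 145 lower H3K27ac regions were called, and 138 higher and 157 lower H3K9ac regions. All 123 and 138 higher calls were among those made without that step, as were 57 and 59 of the lower ones. With tags divided by the length called in each library, 26 H3K27ac regions were called higher and 16 lower and the median fell to 0.11, while the H3K9ac median was 0.47. Shares of all regions are not given here for either of these steps, so their counts are not set against the other chromosomes.

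**Figure D2:**
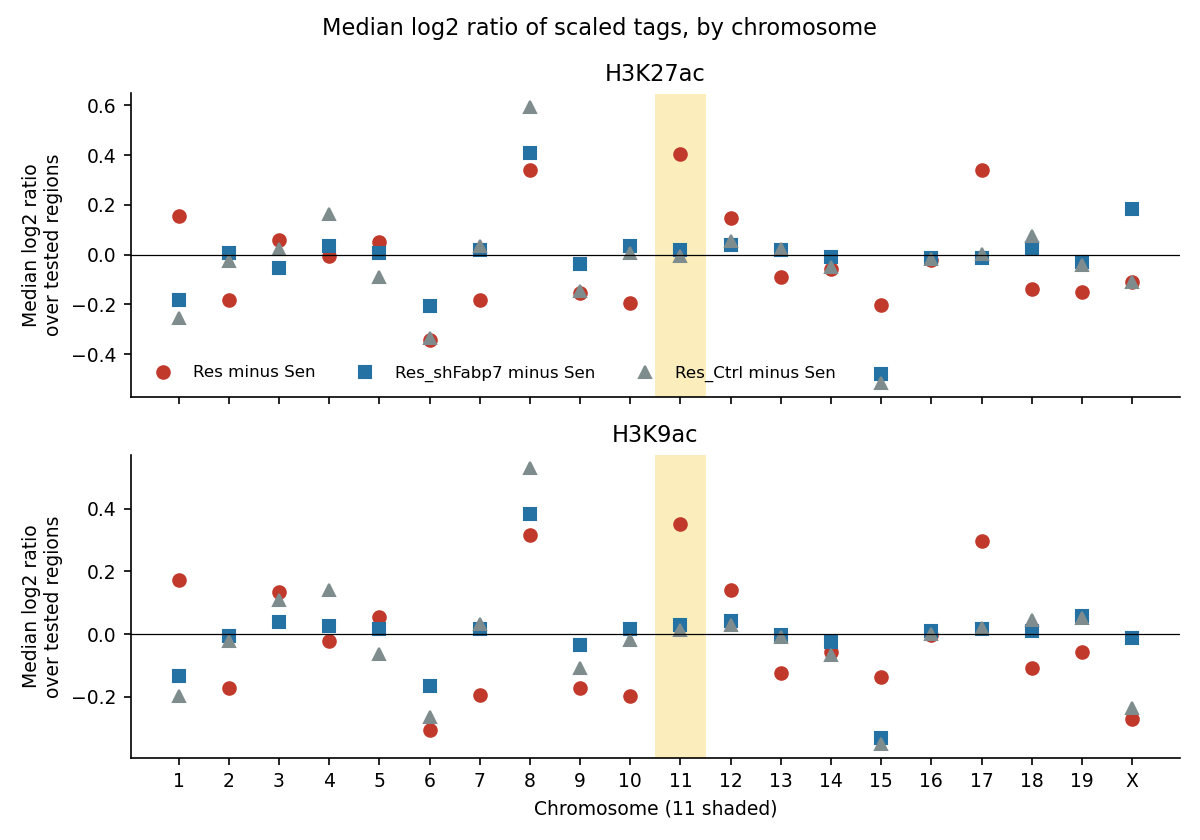
Median log2 ratio over the tested regions of each chromosome, for Res minus Sen (circles), Res_shFabp7 minus Sen (squares) and Res_Ctrl minus Sen (triangles), in both marks. Chromosome 11, shaded, has the highest circles, at 0.41 and 0.35, and squares and triangles near 0.

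The other resistant groups did not share this shift. Res_Ctrl cells had a chromosome 11 median of -0.41 against Res for H3K27ac and -0.34 for H3K9ac, the lowest but 1 of 20 chromosomes in each mark (rank 19). Against Sen the Res_Ctrl medians were -0.01 and 0.01, and the Res_shFabp7 medians 0.02 and 0.03. These comparisons share libraries, so their values are set side by side only. In Res_Ctrl against Res, 42 H3K27ac regions were higher (17.4% of all regions were) and 552 lower (21.6%), and 51 H3K9ac regions were higher (24.7%) and 589 lower (25.4%). In Res_Ctrl against Sen, 74 H3K27ac regions were higher (11.4% of all) and 56 lower (11.1%), and 127 H3K9ac regions were higher (19.2%) and 86 lower (16.4%). In Res_shFabp7 against Sen, 51 H3K27ac regions were higher (7.81% of all) and 52 lower (9.4%), and 109 H3K9ac regions were higher (14.8%) and 63 lower (11.6%). With the replicate number as a block, 89 H3K27ac regions were higher in Res_shFabp7 than in Sen, and the share of all regions is not given for that setting. Res and Res_Ctrl cells carry the same cell line label.

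Along the chromosome the shift ran through nearly every 5 Mb window. Of the 23 windows with at least 5 tested regions, the 3 Res libraries lay above the 3 Sen libraries in 22 windows in each mark, where 35.4% of windows of all chromosomes did so for H3K27ac and 40.9% for H3K9ac. In the 22 windows before the last, the log2 ratio of summed tags ran from 0.32 (55 to 60 Mb) to 0.88 (5 to 10 Mb) for H3K27ac, with a median of 0.43. For H3K9ac it ran from 0.27 (115 to 120 Mb) to 0.46 (40 to 45 Mb), with a median of 0.37. The window at 5 to 10 Mb holds Tns3, which encodes tensin 3, a protein that links integrins to actin. Its H3K27ac region of 54593 bases had 1632, 1898 and 1986 CPM in Res, against 573, 740 and 786 CPM in Sen cells. CPM are tag counts per M tags in the tested regions of all chromosomes, scaled by the trimmed mean of M values (TMM). The median of the single regions in that window was 0.47 for H3K27ac and 0.34 for H3K9ac.

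Only the last window, from 120 Mb, went the other way: Res libraries lay below Sen libraries, with a log2 ratio of -0.13 for H3K27ac and -0.12 for H3K9ac, where 33.6% and 44.5% of all windows were lower without overlap. In Res_Ctrl against Res, all 23 windows were lower without overlap in both marks (34.5% and 36.8% of all windows), and none was higher (36.6% and 43.4%). Between Res_shFabp7 and Res_Ctrl cells the windows ran from -0.11 to 0.13 for H3K27ac and from -0.07 to 0.12 for H3K9ac. There, 8 windows were higher without overlap in each mark (19.9% and 32.7% of all windows) and 2 lower (19.6% and 21.4%). Against Sen, Res_shFabp7 lay higher in 8 windows for H3K27ac (31.4% of all windows) and 14 for H3K9ac (44.1%), and lower in 3 (20.3%) and 2 (24.1%). Res_Ctrl lay higher than Sen in 10 windows in each mark (33.6% and 38.2%), and lower in 4 for H3K27ac (21.4%) and 3 for H3K9ac (30.0%).

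**Figure D3:**
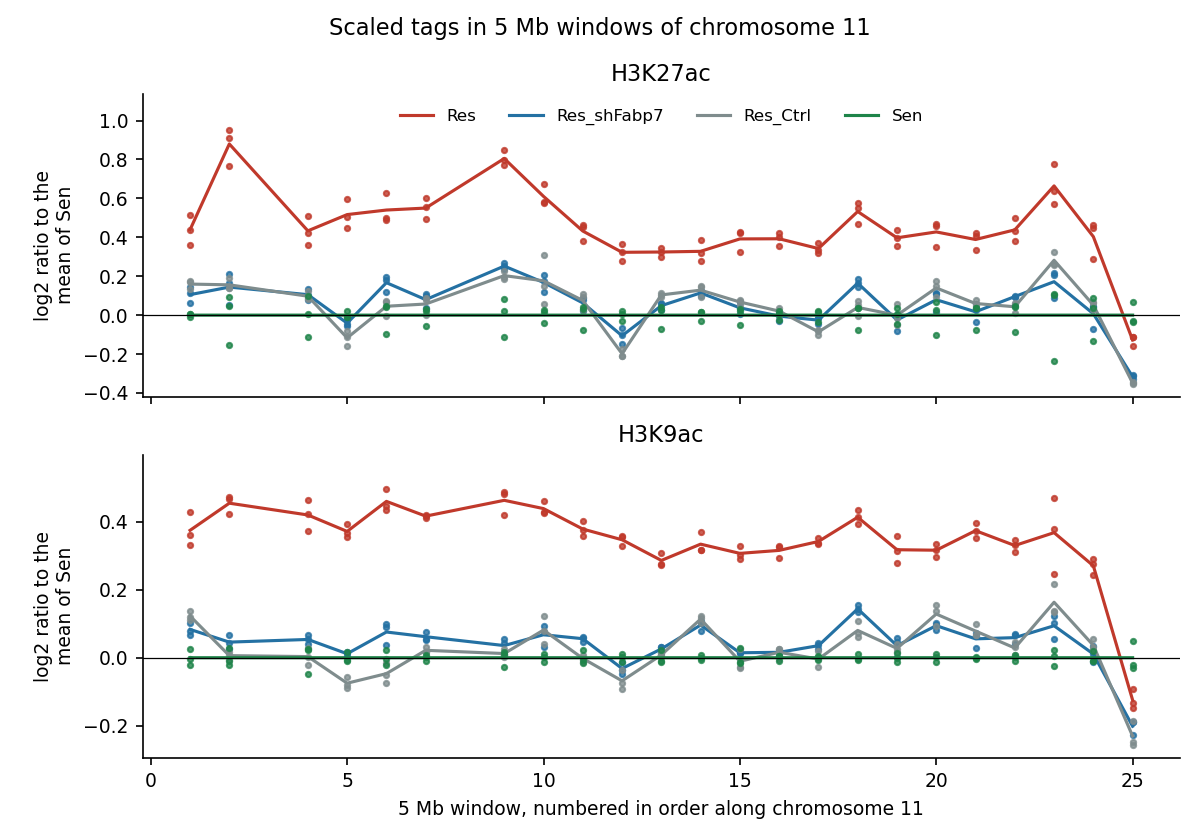
Scaled tags summed over the tested regions of each 5 Mb window of chromosome 11, as the log2 ratio to the mean of the Sen libraries, for each library (points) and group mean (lines), against the number of the window in order. The Res points lie above the others in all but the last window, where Res, Res_shFabp7 and Res_Ctrl all lie below Sen.

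The drop near the end was narrower than a window. Its limits were found by a search, chosen after the values were seen, over runs of 10 to 120 neighbouring regions. It took the run that, given its own median, most lowered the summed absolute deviation of the regions from their medians. In the comparisons against Sen that sum fell by 4.68 to 5.82%, and the sharpness of the limits was not tested. In Res against Sen the run went from chr11:120183413 to chr11:120797710 for H3K27ac, with 25 regions at a median log2 ratio of -0.34 inside and 0.41 outside. For H3K9ac it went from chr11:120183783 to chr11:120992589, with 30 regions at -0.22 inside and 0.36 outside. In Res_Ctrl against Sen and in Res_shFabp7 against Sen the run was the same in both marks, from chr11:120435713 to chr11:120992516 for H3K27ac and from chr11:120435561 to chr11:120992589 for H3K9ac. This stretch of 557 kb held 24 H3K27ac and 23 H3K9ac regions. Relative to the Sen mean, its median H3K27ac level was -0.35, -0.42 and -0.37 on the log2 scale in Res libraries, -0.45, -0.55 and -0.56 in Res_shFabp7 libraries and -0.64, -0.74 and -0.78 in Res_Ctrl libraries, against 0.16, -0.06 and -0.07 in Sen libraries. For H3K9ac it was -0.11, -0.20 and -0.21 in Res, -0.39, -0.38 and -0.36 in Res_shFabp7 and -0.45, -0.54 and -0.51 in Res_Ctrl, against 0.06, -0.04 and -0.02 in Sen libraries. All 9 libraries of resistant cells lay below the 3 Sen libraries in both marks, and Res_Ctrl lay lowest. The limits of the stretch were set on ratios against Sen, so these positions are a description and not a test.

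The stretch was found by its low ratios against Sen, so counts of its single regions are a description. In Res_Ctrl against Sen, 23 of 24 H3K27ac and 23 of 23 H3K9ac regions had a negative ratio. Of all tested chromosome 11 regions, 48.7% and 54.25% were above 0 in that comparison. In Res against Sen, 22 of 24 and 20 of 23 were negative, where 85.22% and 88.05% of all on the chromosome were above 0. Just before that stretch, from chr11:120183413 to chr11:120355825, lay a stretch of 6 H3K27ac and 7 H3K9ac regions. Its mean log2 level in Res libraries was -0.15 ± 0.07 for H3K27ac and -0.25 ± 0.04 for H3K9ac (SD, n = 3). In the same stretch Res_shFabp7 libraries had -0.11 ± 0.02 and -0.05 ± 0.03, and Res_Ctrl libraries -0.03 ± 0.02 and 0.04 ± 0.08. The Res libraries lay below all the others there in H3K9ac, and overlapped those of Res_shFabp7 in H3K27ac. The stretch holds Bahcc1, a chromatin-binding protein gene, at -0.25 and -0.24 in Res against Sen, and Actg1, which encodes cytoplasmic gamma actin, at 0.25 and 0.06. After the second stretch, 8 regions up to the end of the chromosome were again higher in Res, at 0.50 ± 0.01 for H3K27ac and 0.40 ± 0.06 for H3K9ac, against 0.05 ± 0.07 and 0.08 ± 0.05 in Res_shFabp7 and -0.02 ± 0.08 and 0.04 ± 0.03 in Res_Ctrl.

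**Figure D4:**
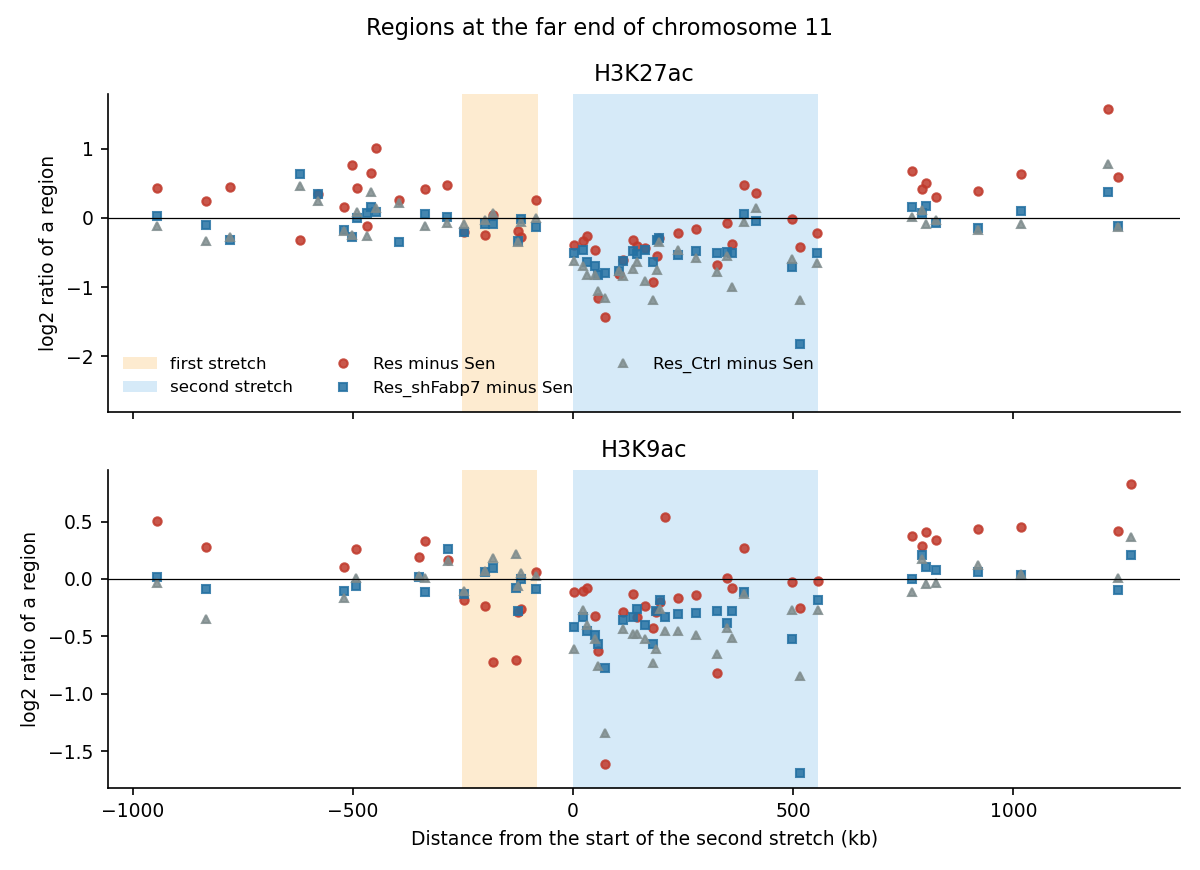
Log2 ratio of each tested region at the far end of chromosome 11 against its distance in kb from the start of the second stretch, for Res minus Sen (circles), Res_shFabp7 minus Sen (squares) and Res_Ctrl minus Sen (triangles). Shading marks the stretches, and in the second, from 0 to 557 kb, the triangles lie lowest for most regions.

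Slc25a10, in the second stretch, encodes the mitochondrial dicarboxylate carrier. Its H3K27ac was 66.1, 69.0 and 69.8 CPM in Res and 173, 138 and 146 CPM in Sen cells, with no overlap, and fell by 1.15 ± 0.13 on the log2 scale (SE; edgeR adjusted p = 1.8e-05). H3K9ac fell there by 0.63 (edgeR adjusted p = 7.7e-06), and turned to 0.15 per called base. Pcyt2, an enzyme of phosphatidylethanolamine synthesis, fell in H3K27ac by 0.93 ± 0.20 (edgeR adjusted p = 0.0022), with 39.0, 51.6 and 40.4 CPM in Res and 82.9, 82.3 and 84.3 CPM in Sen cells. Hmga1b, a retrocopy of the architectural protein gene Hmga1, fell by 0.68 and 0.82, but its reads may be shared with its parent gene and its values are uncertain. P4hb, a disulfide isomerase of the endoplasmic reticulum, fell in H3K27ac by 0.32 (edgeR adjusted p = 0.016), and its H3K9ac ratio was -0.13 (edgeR adjusted p = 0.085). Per called base, the H3K27ac changes of Slc25a10 (-0.37) and Pcyt2 (-0.26) no longer passed the test.

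Fasn and Pycr1 rose within the same stretch, although Fasn lay just past the end of the H3K27ac run of Res against Sen. Fasn, the fatty acid synthase gene, had 143, 130 and 122 CPM of H3K27ac in Res and 112, 88.7 and 86.0 CPM in Sen cells, so that every Res library was above every Sen library, at 0.48 ± 0.12 (edgeR adjusted p = 0.0056). Its H3K9ac was 220, 197 and 192 CPM in Res and 166, 167 and 169 CPM in Sen cells, at 0.27 ± 0.05 (edgeR adjusted p = 0.00042). Pycr1, an enzyme of proline synthesis, rose in H3K9ac by 0.54 (edgeR adjusted p = 0.0007), a call lost with the chromosome medians removed, and was named after its value was seen. In Res_Ctrl against Sen, Fasn stood at -0.06 and -0.13, with neither past the test (edgeR adjusted p = 0.77 and 0.08). The H3K27ac change of Fasn did not hold with the chromosome medians removed (0.08) and turned to -0.06 per called base.

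Slc16a3, near the end of the stretch, encodes the lactate exporter MCT4. Its H3K9ac was 112, 106 and 115 CPM in Res, 41.6, 39.6 and 41.9 CPM in Res_shFabp7, 76.2, 73.4 and 72.4 CPM in Res_Ctrl and 130, 129 and 138 CPM in Sen cells, 4 levels that did not overlap. It fell by 0.85 ± 0.08 in Res_shFabp7 against Res_Ctrl (edgeR adjusted p = 3.9e-06), by 0.84 in Res_Ctrl against Sen and by 0.26 in Res against Sen. H3K27ac at Slc16a3 fell by 0.64 ± 0.11 in Res_shFabp7 against Res_Ctrl (edgeR adjusted p = 0.016), a call lost without replicate 2 or 3 of Res_shFabp7. Its levels stood in the same order, at 77.0, 73.9 and 71.1 CPM in Res, 29.5, 27.1 and 27.5 CPM in Res_shFabp7, 46.7, 42.7 and 41.3 CPM in Res_Ctrl and 101, 103 and 94.6 CPM in Sen cells.

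Away from that stretch, Igf2bp1, an RNA-binding protein of fetal tissues that binds the messages of Igf2 and Myc, had the highest H3K9ac ratio of Res against Sen among the genes named by the rule, at 335, 328 and 321 CPM in Res and 41.7, 46.0 and 43.9 CPM in Sen cells. The change was 2.89 ± 0.06 (edgeR adjusted p = 5.5e-16), 7.41-fold. Res_shFabp7 had 242, 241 and 245 CPM and Res_Ctrl 223, 244 and 258 CPM, so this gene was high in all resistant groups, at 2.46 against Sen in each, while the chromosome as a whole was not.

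**Figure D5:**
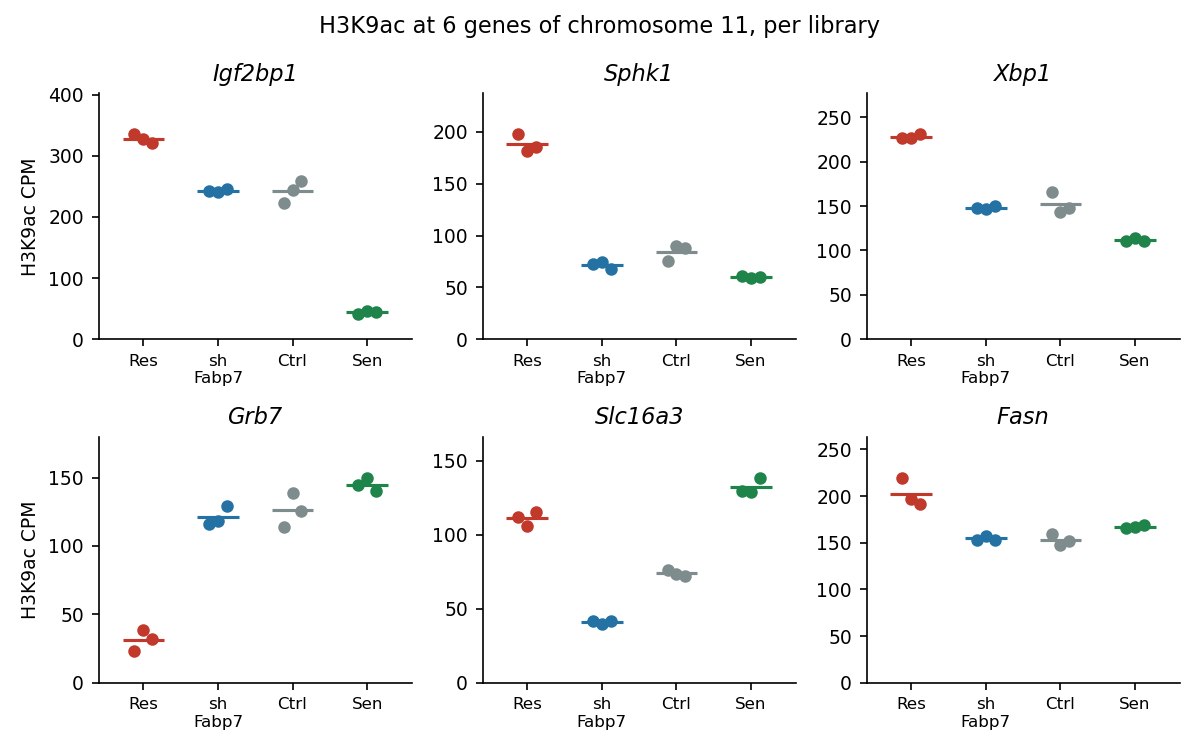
H3K9ac in CPM at the regions of Igf2bp1, Sphk1, Xbp1, Grb7, Slc16a3 and Fasn, for each library (points) and group mean (lines), on axes that start at 0. Igf2bp1 is high in the 3 resistant groups, Grb7 is low in Res alone, and Slc16a3 is lowest in Res_shFabp7.

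Sphk1, a kinase that makes the signalling lipid sphingosine 1-phosphate, rose in both marks. It had 139, 137 and 126 CPM of H3K27ac in Res and 43.3, 40.8 and 31.3 CPM in Sen cells, with no overlap, at 1.82 ± 0.12 (edgeR adjusted p = 2.9e-07). The H3K9ac change was 1.65 ± 0.07 (edgeR adjusted p = 3.9e-12). Trim47, a RING ubiquitin ligase, rose by 1.53 ± 0.11 for H3K27ac and 1.64 ± 0.07 for H3K9ac. Its H3K9ac was 185, 194 and 206 CPM in Res and 66.6, 63.9 and 59.2 CPM in Sen cells, although the H3K27ac change per called base was 0.38 and no longer passed. In the promoter letters printed above, Sphk1 has 56.0% G and C and a TATAAA, and Trim47 has 74.3% and none.

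Sox9, a transcription factor of the branching tips of the fetal lung, had 177, 151 and 200 CPM of H3K27ac in Res and 16.3, 59.7 and 46.4 CPM in Sen cells. The change was 2.04 ± 0.29 (edgeR adjusted p = 0.00012) for H3K27ac and 1.03 ± 0.12 (edgeR adjusted p = 1.3e-06) for H3K9ac. The remaining H3K27ac rises named by the rule were the shared promoter region of Mdh1 (cytosolic malate dehydrogenase) and Wdpcp (a planar polarity protein of cilia) at 1.71, that of Abhd15 (a hydrolase-fold protein of fat cells) and Trp53i13 (a p53-induced gene) at 1.55, and Hap1 (huntingtin-associated protein) at 1.53. Mdh1 had 71.0, 56.5 and 62.9 CPM in Res and 25.1, 17.8 and 16.9 CPM in Sen cells, and turned to -0.02 per called base. For H3K9ac they were Itgb4 (an integrin of hemidesmosomes) at 1.56, Otx1 (a homeobox factor) at 1.40 and Tns3 at 1.30, each without overlap of the libraries.

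Falls were fewer, and Grb7 had the deepest of those named by the rule in each mark. Grb7, an adaptor of receptor tyrosine kinases beside Erbb2, had 23.4, 38.5 and 31.8 CPM of H3K9ac in Res and 145, 150 and 140 CPM in Sen cells, at -2.20 ± 0.11 (edgeR adjusted p = 5.4e-11). Its H3K27ac change was -1.99 ± 0.19 (edgeR adjusted p = 4.3e-06). In H3K9ac, Res_Ctrl cells had 114, 139 and 125 CPM and Res_shFabp7 cells 116, 119 and 130 CPM, so that Res lay far below every other group. Against Sen, the H3K9ac ratio was -0.25 in Res_shFabp7 (edgeR adjusted p = 0.028) and -0.20 in Res_Ctrl cells (edgeR adjusted p = 0.091). Erbb2, its neighbour, stood at 0.08 for H3K27ac (edgeR adjusted p = 0.77) and 0.19 for H3K9ac (edgeR adjusted p = 0.044). Krt20, a keratin of intestinal and urothelial epithelium, fell by 0.86 and 0.65, with the H3K9ac value turning to 0.52 per called base.

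The other falls named by the rule were Shroom1 (an actin-binding protein) at -0.94 for H3K27ac, and, for H3K9ac, Septin9 (a cytoskeletal GTP-binding protein) at -1.17, Smim6 (a small membrane protein) at -0.97 and Dlx4 (a homeobox factor) at -0.72. The Shroom1 and Septin9 calls depended on how peaks were merged. With peaks merged over the 6 libraries of the pair alone, their values were 0.21 and 0.06.

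The lists of genes on chromosome 11 were chosen with earlier results of these data known, and their counts are given beside all tested genes of the chromosome, of which 484 of 768 rose and 24 fell in H3K27ac and 653 of 824 rose and 35 fell in H3K9ac. The lists share members, among them Sqstm1, Stat3 and Trp53, and Kat2a and Hspb9 of different lists share a region, so the counts are not separate sets of regions. Of the named calls of Res against Sen, 41 of 48 in H3K27ac and 6 of 47 in H3K9ac were lost or turned per called base, and 19 and 16 were with the chromosome medians removed. Of 23 tested genes of protein synthesis and the proteasome, 19 rose and 0 fell in H3K27ac in Res against Sen cells, and 22 rose in H3K9ac (median 0.44 and 0.40). Rpl38, a protein of the large ribosomal subunit whose H3K27ac region also covers the start of Ttyh2, rose by 1.22 and 0.72, the H3K27ac value turning to -0.03 per called base, and Eif1, a factor of start codon choice, by 0.71 in each mark. Of 25 tested genes of cell division and DNA repair, 16 rose and 0 fell in H3K27ac, and 19 rose and 1, Birc5 (survivin), fell in H3K9ac (median 0.36 in each). The region that Trp53, the p53 gene, shares with Wrap53 rose by 0.35 in H3K27ac and 0.43 in H3K9ac, close to the medians of the chromosome, and the H3K27ac value turned to -0.05 with these removed.

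Of 13 tested genes of stress and the unfolded protein response, 10 rose and 1, P4hb, fell in H3K27ac, and 11 rose and 0 fell in H3K9ac (median 0.48 and 0.42). Xbp1, the transcription factor of the unfolded protein response, had 227, 226 and 231 CPM of H3K9ac in Res and 110, 114 and 111 CPM in Sen cells, at 1.03 ± 0.05 (edgeR adjusted p = 9.2e-11). Ern1, which encodes the sensor IRE1 that splices the Xbp1 message, rose by 0.89 and 0.74. Of the chromatin genes 12 of 17 tested rose in H3K27ac, and 16 of 20 rose and 1, Chd3 (a nucleosome remodeller), fell in H3K9ac. The region that Kat2a, an acetyltransferase that acts on lysine 9, shares with Hspb9 rose by 0.48 and 0.33.

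Of the genes of lipid metabolism 5 of 10 tested rose and 2 fell in H3K27ac, and 7 of 12 rose and 2 fell in H3K9ac (median 0.31 and 0.25). The 2 that fell in each mark were Slc25a10 and Slc16a3. Srebf1, the transcription factor that drives fatty acid synthesis genes, rose by 0.45 and 0.36, and Acly, which makes cytosolic acetyl-CoA, stood at 0.16 (edgeR adjusted p = 0.5) for H3K27ac and rose by 0.25 for H3K9ac. Of 13 genes of ferroptosis and oxidative stress on the chromosome, only 4 were tested in H3K27ac and 6 in H3K9ac. All of these rose, among them Sqstm1, the autophagy receptor p62, by 0.93 and 0.68. Immune signalling genes were mostly untested, with 11 of 43 tested in H3K27ac. There 7 rose and 0 fell, and in H3K9ac 8 of 10 rose and 1, Lgals3bp (a secreted glycoprotein), fell. Stat3, a transcription factor of cytokine signalling, rose by 0.86 and 0.54, and Ccl8, a chemokine, by 0.72 and 0.51. All 4 calls were lost with the chromosome medians removed, and Stat3 H3K27ac turned to -0.04 per called base.

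The keratin, junction and epithelial list was mixed, with 3 of 11 tested genes higher and 3 lower in H3K27ac, and 7 of 10 higher and 3 lower in H3K9ac (median 0.14 and 0.22). Itgb4 and Itga3, both laminin-binding integrins, rose, by 0.86 and 0.72 in H3K27ac, and Krt20, Grb7 and Egfr fell, Egfr by 0.38. Of 13 mesenchymal, matrix and fetal genes on the chromosome, only 3 were tested in H3K27ac and 4 in H3K9ac, and all of these rose. Sparc, a matrix protein of fibroblasts and other stromal cells, was tested in H3K27ac alone, at 1.22 ± 0.10 (edgeR adjusted p = 7.8e-07). Sparc H3K27ac was 188, 197 and 204 CPM in Res, 65.8, 59.2 and 66.2 CPM in Res_shFabp7, 33.4, 41.4 and 37.6 CPM in Res_Ctrl and 83.8, 86.5 and 82.8 CPM in Sen cells. The clock list of 5 genes holds the clock genes Per1, Nr1d1 and Csnk1d, and the receptor genes Rara and Thra. In H3K27ac 4 rose, all but Csnk1d (median 0.30). In H3K9ac only Rara and Thra rose (median -0.02), and Per1, Nr1d1 and Csnk1d were not called. Thra, a thyroid hormone receptor beside Nr1d1, rose by 1.08 and 0.60. With the chromosome medians removed, the H3K27ac ratios of Nr1d1 (0.30) and Rara (0.27) turned to -0.09 and -0.12, the H3K9ac ratio of the region of Rara and Gm46294 (0.23) turned to -0.12, and the H3K9ac call of Thra was lost. The H3K27ac call of Nr1d1 was also lost without any 1 of 4 of the 6 libraries, and that of Rara without any 1 of the 6. None of the 10 Hoxb genes had a region in all 12 libraries.

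Between Res_shFabp7 and Res_Ctrl cells few chromosome 11 regions were called, in numbers that moved with the setting. In Res_shFabp7 against Res_Ctrl, 2 of 961 H3K27ac regions were higher, against 0.437% of all regions, and 8 were lower, against 1.02%. For H3K9ac 17 of 870 were higher, against 2.61% of all regions, and 25 lower, against 4.71%. The medians of the chromosome were 0.01 and 0.02. For H3K27ac, 13 were higher and 19 lower with the replicate number as a block, and 17 and 20 with the pair merged and fitted alone. Counts moved with single libraries, to 1 higher and between 1 and 3 lower H3K27ac regions, and to between 7 and 24 higher and 9 and 25 lower H3K9ac regions when each library was left out in turn. The length called on chromosome 11 was larger in the knockdown. For H3K27ac it was 4831 to 6500 kb in Res_shFabp7 and 3801 to 4535 kb in Res_Ctrl libraries. For H3K9ac it was 3534 to 4122 kb and 2335 to 3469 kb. The whole lists differed in the same way, with 62.5 to 88.6 Mb against 49.2 to 59.2 Mb for H3K27ac. For H3K9ac they had 42.3 to 50.1 Mb against 27.8 to 41.7 Mb. The chromosome 11 share of the called length was not larger in the knockdown. It was 7.34 to 7.73% against 7.57 to 7.86% for H3K27ac, and 8.23 to 8.36% against 8.31 to 8.41% for H3K9ac. Per called base 0 were higher and 129 lower for H3K27ac and 0 higher and 257 lower for H3K9ac, with medians of -0.24 and -0.21. The part of the called length in the results was not tested further. Shares of all regions under these other settings are not given here, so their counts are not set against the other chromosomes.

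Sparc was the named H3K27ac rise, with 65.8, 59.2 and 66.2 CPM in Res_shFabp7 and 33.4, 41.4 and 37.6 CPM in Res_Ctrl cells, at 0.77 ± 0.10 (edgeR adjusted p = 0.0045), turning to -0.26 per called base. Among H3K9ac rises were Igfbp3, a carrier of insulin-like growth factors, at 0.67, and Nprl3, a subunit of the GATOR1 complex that restrains mTORC1, at 0.55 ± 0.08. Sqstm1 had 122, 123 and 116 CPM of H3K9ac in Res_shFabp7 and 88.6, 88.3 and 80.0 CPM in Res_Ctrl cells, at 0.49 ± 0.08 (edgeR adjusted p = 0.0018). Arrb2 (a beta-arrestin) stood at 0.43, Psmb6 (a proteasome subunit) at 0.42 and Sirt7 (a deacetylase) at 0.33, each past the test but lost without any 1 of 5 of the 6 libraries. The Igfbp3 call was lost without any 1 of 4, and those of Psmb6 and Sirt7 also with DESeq2 and with the chromosome medians removed. Per called base Igfbp3, Nprl3, Sqstm1, Arrb2 and Sirt7 turned negative, at -0.01, -0.67, -0.39, -0.32 and -0.09.

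Dlx4, the homeobox gene, fell in both marks, to 21.2, 32.7 and 22.0 CPM of H3K9ac in Res_shFabp7, against 59.3, 45.9 and 57.5 CPM in Res_Ctrl, at -1.08 ± 0.16 (edgeR adjusted p = 0.0006). Its H3K27ac change was -0.84 ± 0.16 (edgeR adjusted p = 0.026), a call lost without replicate 1 or 3 of Res_shFabp7 or replicate 2 or 3 of Res_Ctrl. Tns4, a tensin of epithelial adhesions, had 47.9, 43.7 and 40.9 CPM of H3K9ac in Res_shFabp7 and 85.7, 86.6 and 79.5 CPM in Res_Ctrl cells, at -0.93 ± 0.12 (edgeR adjusted p = 0.0002). Arhgap27, a GTPase-activating protein, fell by 0.50 and 0.53, Sox9 by 0.56 in H3K9ac, a call lost without any 1 of 4 libraries, and Cd300lb, a receptor of myeloid cells, by 0.55 in H3K9ac. The H3K27ac call of Arhgap27 and that of Cd300lb were each lost without any 1 of 5 libraries. The H3K9ac calls of Dlx4, Tns4 and Slc16a3 held under every alternative that could be run for them.

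Some regions had a peak in all 3 libraries of 1 group of a pair and in none of the other. Of 2026 chromosome 11 H3K27ac regions with a peak in Res or Sen cells, 146 (7.21%) had one in 3 of 3 Res and 0 of 3 Sen libraries, against 5.98% on all chromosomes, and 40 (1.97%) the reverse, against 3.35%. For H3K9ac 37 of 1491 (2.48%) were gained, against 2.24%, and 115 (7.71%) lost, against 11.9%. The lost shares were below those of all chromosomes in both marks. With the same number of peaks taken from each library, 64 H3K9ac regions were gained and 41 lost. The gained H3K9ac regions with most tags at a gene start were those of Stc2, a secreted glycoprotein of the stress response, with 435, 504 and 474 tags in Res libraries, and Meis1, a homeobox factor, with 287, 341 and 365 tags. Stc2 also had a peak in 3 Res_shFabp7 libraries and 1 Res_Ctrl library, and Meis1 in none of these. The lost one was Rnf130, a ubiquitin ligase, with 307, 704 and 830 tags in Sen libraries and a peak in 3 of 3 Res_shFabp7 and 3 of 3 Res_Ctrl libraries. Between Res_shFabp7 and Res_Ctrl, 76 of 2045 H3K27ac regions (3.72%, against 3.95% of all) and 63 of 1539 H3K9ac regions (4.09%, against 4.86%) were gained and 0 lost in either mark (0.0985% and 0.0262% of all), a one-sidedness found on all chromosomes. With the same number of peaks taken from each library, 23 were gained and 15 lost for H3K27ac and 11 gained and 13 lost for H3K9ac. Shares of all regions are not given here for equal numbers of peaks in either comparison.

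The 2 marks moved alike where both were tested. Across 783 overlapping pairs of regions the log2 ratios of Res against Sen had a Pearson r of 0.745, and those of Res_shFabp7 against Res_Ctrl 0.564, as a description over regions that share their libraries. Regions near a gene start and those farther away were both shifted: the median of Res against Sen was 0.41 within 1 kb and 0.37 farther for H3K27ac, and 0.36 and 0.30 for H3K9ac. Of the farther H3K27ac regions 46.7% were called higher and 11.6% lower, against 62.7% and 3.34% near a start. Over regions of all chromosomes at any position, 20.5% and 17.3% were. Shares by position over all chromosomes are not given here.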

How the data were processed

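Peaks of 24 libraries, 12 per mark, were analysed; 4 input samples were not. Bowtie 1.1.2, MACS 1.4.2 and mm10 are named in the submitters' processing notes. Each deposited peak has a tag count, a fold over background and a score of -10 times the log10 of the caller's p, which the authors took from their peak caller. Input use as control is not given in the sources used here.

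Peaks that overlapped by 1 base were merged per mark, and tag counts summed per library. Regions with a peak in all 12 libraries, on all chromosomes, entered 1 fit per mark with edgeR 4.0.16 (TMM scaling, quasi-likelihood test, Benjamini-Hochberg adjusted p under 0.05) in R 4.3.3. The SE is the log2 ratio divided by the root of F. Window sums and chromosome medians carry no p. Named genes were called regions within 1 kb of a protein-coding gene start, and examples from 11 gene lists. Up to 6 highest and 6 lowest regions were taken in Res against Sen and in Res_shFabp7 against Res_Ctrl, and 3 and 3 elsewhere. Bahcc1, Nploc4, Arhgdia and Pycr1 were added after their values were seen. The chromosome, members and lists were chosen with earlier results of these data known. Deviations of same-numbered libraries correlated at 0.072 to 0.446 for H3K27ac and -0.134 to 0.152 for H3K9ac. Every correlation was over 0.1 for H3K27ac in Res_shFabp7 against Res_Ctrl (0.187 to 0.419), Res_Ctrl against Res (0.102 to 0.382) and Res_shFabp7 against Sen (0.229 to 0.446). There the numbers were taken to pair the libraries, from these data and not from the labels. Correlations of differently numbered libraries are not given here, so this pairing is uncertain. Counts and p-values come from fits without a replicate block, also in these comparisons, except where the block is named. The fit was tested on simulated data. Alternatives covered scaling, DESeq2 1.42.0, tag and score limits, merging, called length, chromosome medians, window size, the replicate block and each library left out.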

Additional observations from a re-analysis of the deposited data

How the results depend on the processing

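The chromosome 11 median of Res against Sen stayed above 0 in both marks under every alternative that gave one. Counts and window shares in this section are of chromosome 11 alone, and those of all chromosomes under the alternatives are not given. Of all results for comparisons under all alternatives, 399 stayed within the limits set for them and 145 moved; of values at named genes 2114 were alike, 193 lost their call, 1 gained one and 30 turned sign. The cause of these moves was not tested.

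Division by called length moved most. In Res against Sen it left 26 higher and 16 lower H3K27ac regions with a median of 0.108, and 4 lower H3K9ac regions with 0.472. In Res_shFabp7 against Res_Ctrl it gave 0 higher and 129 lower H3K27ac regions (median -0.236) and 0 higher and 257 lower H3K9ac regions (-0.208). In Res_Ctrl against Res it gave 19 higher and 35 lower (-0.157), and 15 and 320 (-0.239). In Res_Ctrl against Sen it gave 0 and 4 (-0.0457), and 365 and 3 (0.221). In Res_shFabp7 against Sen it gave 1 and 277 (-0.278), and 25 and 10 (0.0186). It turned these log2 ratios. In Res against Sen for H3K27ac they were Mdh1 and Wdpcp -0.0158, Pgs1 -0.0241, Fasn -0.0634, Timp2 -0.0524, Stat3 -0.0359, Rara -0.0407, and Rpl38 and Ttyh2 -0.0318. For H3K9ac they were Septin9 0.266, Krt20 0.525, Slc25a10 0.154 and Nploc4 0.0837. In Res_shFabp7 against Res_Ctrl they were Sparc -0.255 for H3K27ac and, for H3K9ac, Igfbp3 -0.0112, Nprl3 -0.669, Sqstm1 -0.386, Arrb2 -0.322 and Sirt7 -0.0918. Against Sen they were Zmynd15 -0.0654 and Nxn -0.145 for H3K27ac in Res_shFabp7 and Slc25a10 0.0229 for H3K9ac in Res_Ctrl.

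With chromosome medians removed, Res against Sen had 123 higher and 145 lower H3K27ac regions and 138 and 157 H3K9ac regions, and Res_Ctrl against Res 139 and 91, and 157 and 128. Res_shFabp7 against Res_Ctrl had 1 and 4 for H3K27ac and 11 higher for H3K9ac, and Res_shFabp7 against Sen 32 higher for H3K27ac. In Res against Sen it turned Trp53 and Wrap53 to -0.0471, Nr1d1 to -0.0899 and Rara to -0.121 for H3K27ac, and Pld2 to -0.0362, Aldh3a2 to -0.0724, Fgf11 and Tmem102 to -0.0039 and Gm46294 and Rara to -0.118 for H3K9ac.

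With each pair merged and fitted alone, the H3K27ac median of Res against Sen was 0.391, Res_shFabp7 against Res_Ctrl had 17 higher and 20 lower H3K27ac regions, Res_Ctrl against Sen had 36 lower H3K27ac regions and medians of 0.031 and 0.0064, and Res_shFabp7 against Sen had an H3K27ac median of 0.0497 and 115 lower H3K9ac regions. Shroom1 turned to 0.213 in Res against Sen and -0.0354 in Res_Ctrl against Res, and Septin9 to 0.058 in Res against Sen.

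With a score of 100 or more, Res_shFabp7 against Res_Ctrl had 1 higher and 5 lower H3K27ac regions. Medians were 0.334 in Res against Sen and -0.325 in Res_Ctrl against Res for H3K9ac, 0.021 and 0.0051 in Res_Ctrl against Sen and 0.0406 and 0.0177 in Res_shFabp7 against Sen. Res against Sen had 52 gained and 16 lost H3K27ac regions and 11 and 53 H3K9ac regions, and Res_shFabp7 against Res_Ctrl 19 and 12 gained. With equal numbers of peaks, Res_shFabp7 against Res_Ctrl had 23 gained and 15 lost, and 11 and 13, and Res against Sen 64 gained and 41 lost H3K9ac regions. Merging within 500 bases gave -0.384 in Res_Ctrl against Res for H3K27ac.

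TMM without chromosome 11 gave medians of 0.442 and 0.380 in Res against Sen, -0.363 in Res_Ctrl against Res for H3K9ac and 0.0373 in Res_shFabp7 against Sen for H3K27ac, and 1 higher H3K27ac region in Res_shFabp7 against Res_Ctrl. RLE factors gave 1 such region and a median of 0.0386, and DESeq2 8 such regions. With at least 100 tags, the H3K9ac medians were 0.327 in Res against Sen, -0.317 in Res_Ctrl against Res, 0.0042 in Res_Ctrl against Sen and 0.0138 in Res_shFabp7 against Sen.

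Windows of 10 Mb were lower without overlap in 7.69% in Res against Sen in each mark, in 15.4% (H3K27ac, with 23.1% higher) and 0.0% (H3K9ac) in Res_shFabp7 against Res_Ctrl, and in 7.69% in Res_shFabp7 against Sen for H3K27ac. Windows of 2.5 Mb were lower in 2.63% and 2.86% in Res against Sen and in 13.2% in Res_shFabp7 against Res_Ctrl for H3K27ac. By the median of region ratios, windows were lower in 0.0% in Res against Sen for H3K9ac, in 0.0% and 4.35% in Res_shFabp7 against Res_Ctrl and in 4.35% in each mark in Res_shFabp7 against Sen, and in Res_Ctrl against Sen 21.7% were higher and 8.7% lower for H3K27ac and 26.1% higher for H3K9ac.

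With the replicate block, Res_shFabp7 against Res_Ctrl had 13 higher and 19 lower H3K27ac regions, and 116 were higher in Res_Ctrl and 89 in Res_shFabp7 against Sen, and the block changed no other count past 1.5 times and no call at a named gene. In Res_Ctrl and Res against Sen, and for H3K9ac throughout, the numbers were not taken to pair the libraries.

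With each library left out in turn, medians ran from 0.400 to 0.426 and 0.350 to 0.357 in Res against Sen, -0.416 to -0.379 and -0.354 to -0.322 in Res_Ctrl against Res, -0.0137 to 0.027 and -0.0038 to 0.0202 in Res_Ctrl against Sen, and 0.0135 to 0.0358 in Res_shFabp7 against Sen for H3K27ac. Counts ran from 1 to 1 higher and 1 to 3 lower H3K27ac and 7 to 24 higher and 9 to 25 lower H3K9ac regions in Res_shFabp7 against Res_Ctrl. They ran from 24 to 51 higher and 30 to 59 lower H3K27ac and 72 to 98 higher H3K9ac regions in Res_shFabp7 against Sen, and from 49 to 72 higher H3K27ac regions in Res_Ctrl against Sen. Sequencing depth is not in the peak lists, and a region without a peak in 1 library has no count, which limits what could be tested.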

Other observations

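The search for a run of neighbouring regions, chosen after the values were seen, gave other limits in the remaining comparisons. In Res_shFabp7 against Res_Ctrl it chose 12 H3K27ac regions from chr11:120456898 to chr11:120627921, with a median log2 ratio of 0.23 inside and 0.01 outside, and 15 H3K9ac regions from chr11:120489126 to chr11:120797509, with 0.16 inside and 0.01 outside. Both runs lie within the stretch that was low against Sen, and hold Slc25a10, P4hb and Pcyt2. In Res_Ctrl against Res it chose 71 H3K27ac regions from chr11:17158079 to chr11:33164395, at -0.59 inside and -0.40 outside, and 62 H3K9ac regions from chr11:116580292 to chr11:120550971, at -0.14 inside and -0.35 outside. The search always returns a run, so these are values and not calls.

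Away from gene starts, the H3K27ac region with most tags among those gained in Res against Sen, chr11:42902042-42908195, had 712, 587 and 496 tags in Res libraries. It also had a peak in 3 of 3 Res_shFabp7 and 3 of 3 Res_Ctrl libraries and in 0 of 3 Sen libraries.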
